A study of Mus musculus with 16 samples.

Results

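The 10 genes Gpr56, Neurl3, Art4, Nupr1, Slc18a2, AI467606, Mfsd2b, Cd44, Emb and Cryaa were followed through endothelium and hemogenic endothelium of the midgestation mouse. They were taken by gene symbol from the 33531 symbols of the deposited expression table, and all 10 symbols were found there. They had been picked from the same values, for their difference between hemogenic and other endothelium or for their change with site or stage. Their levels and differences along those axes are therefore a description and carry no test. The study sorted cells of both kinds by flow cytometry at embryonic day (E) 9.5 and E10.5 and measured RNA by sequencing in 16 libraries, 2 for each of 8 groups. Non-hemogenic endothelial cells (EC) were negative for Runx1-GFP and kit and positive for CD31, and hemogenic endothelial cells (HE) were positive for Runx1-GFP and CD31 with low or no kit. Both gates left out cells with CD41 or CD45 on the surface. At each stage both cell types were sorted from 2 tissues. One was the yolk sac, and the other, called embryo here, comprised the aorta-gonad-mesonephros (AGM), adjoining somite tissue and both the vitelline and the umbilical vessels. The parents were superovulated B6C3F1/J females and males homozygous for Runx1tm4Dow, the Runx1-GFP allele, so the EC groups carried the reporter allele as well as the HE groups. The reporter marks cells by GFP from the Runx1 allele, and the labels do not say whether the replicates of a group came from separate litters or sorts.

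Hemogenic endothelium is the part of the vessel wall that turns into blood. Its cells begin to express the transcription factor Runx1, lose endothelial features and bud off as blood progenitors, in the yolk sac and later in the large arteries of the embryo. Beside the well known regulators, HE carries transcripts of surface receptors, transporters and intracellular proteins whose part in this step is less studied, and the 10 genes are of this kind. Gpr56 (now Adgrg1) encodes an adhesion G protein-coupled receptor of blood stem and progenitor cells, Cd44 the main cell surface receptor for hyaluronan, and Art4 a surface ADP-ribosyltransferase that carries the Dombrock blood group in humans. Slc18a2 encodes the vesicular monoamine transporter, Mfsd2b a sphingosine 1-phosphate exporter of red cells and platelets, and Emb embigin, a membrane partner of lactate transporters. Neurl3 encodes a ubiquitin ligase with a neuralized repeat, Nupr1 a small nuclear protein induced by stress, and Cryaa the small heat shock chaperone alpha A-crystallin of the lens. No role is given here for AI467606.

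Expression is given in the authors' deposited unit, FPKM, a fragment count corrected for transcript length and for the size of the library, so levels can be set side by side between genes. Values summed to between 586501 and 785252 per library, and between 11639 and 12527 genes reached 1 FPKM. Sequencing depth is unknown. The 2 HE-labelled libraries of the E10.5 yolk sac stood apart from their label. In them Runx1 was 2.19 and 2.17 FPKM against 2.60 and 2.04 in the EC libraries of the same tissue, while every other HE group was above its EC group in both libraries. Pecam1, which encodes CD31, was 47.6 and 12.6 FPKM there and reached 48.8 or more in the remaining 14, lowest in E9.5 yolk sac HE replicate 2. The summed level of 10 endothelial markers was between 191 and 574 FPKM in these libraries. The HE of the E9.5 yolk sac came next, at 748 and 1786 FPKM, and every other group was at 1627 FPKM or more. Where results rest on the HE-labelled libraries of the E10.5 yolk sac, values or calls without them are given as well. Without them the comparison of sites within HE covers E9.5 alone, with 2 libraries per site. A call lost in that comparison cannot be told apart from an effect of stage or of fewer libraries. The tissue of origin was also visible in the sorted cells. The summed level of 11 visceral endoderm and epithelial markers lay between 29.3 and 132 FPKM in the embryo libraries and between 2005 and 9767 FPKM in the yolk sac libraries, and that of 10 erythroid markers between 1892 and 11863 FPKM and between 14166 and 55023 FPKM. In such bulk samples fewer cells of a type and less RNA per cell cannot be told apart.

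The 10 genes differed widely in level. Emb was the most abundant, between 6.94 and 111 FPKM, and its mean over all libraries exceeded that of 80.5% of the 13955 genes that reached 1 FPKM in at least 2 libraries. Gpr56 and Cd44 lay near the middle of these genes, at 51.8% and 49.9%, and AI467606 lay lowest, at 13.02%, with no library above 3.88 FPKM. All 10 passed this filter. Cryaa did so only through HE, since it reached 1 FPKM in 5 libraries, none of them EC, and 3 of the EC libraries listed it at 0. Of the 10 genes, 6 had their highest group mean in the HE of the E9.5 embryo (Gpr56, Neurl3, Art4, Nupr1, Slc18a2 and AI467606). Another 3 were highest in the HE of the E9.5 yolk sac (Mfsd2b, Emb and Cryaa), and Cd44 was highest in the EC of the E9.5 yolk sac. The order of groups was seldom sharp below the top, and the top group of Cd44 itself overlapped with the HE of the E9.5 embryo. By gene, between 1 and 4 of the 7 steps from a group to the next lower one separated all libraries of both groups.

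**Figure D1:**
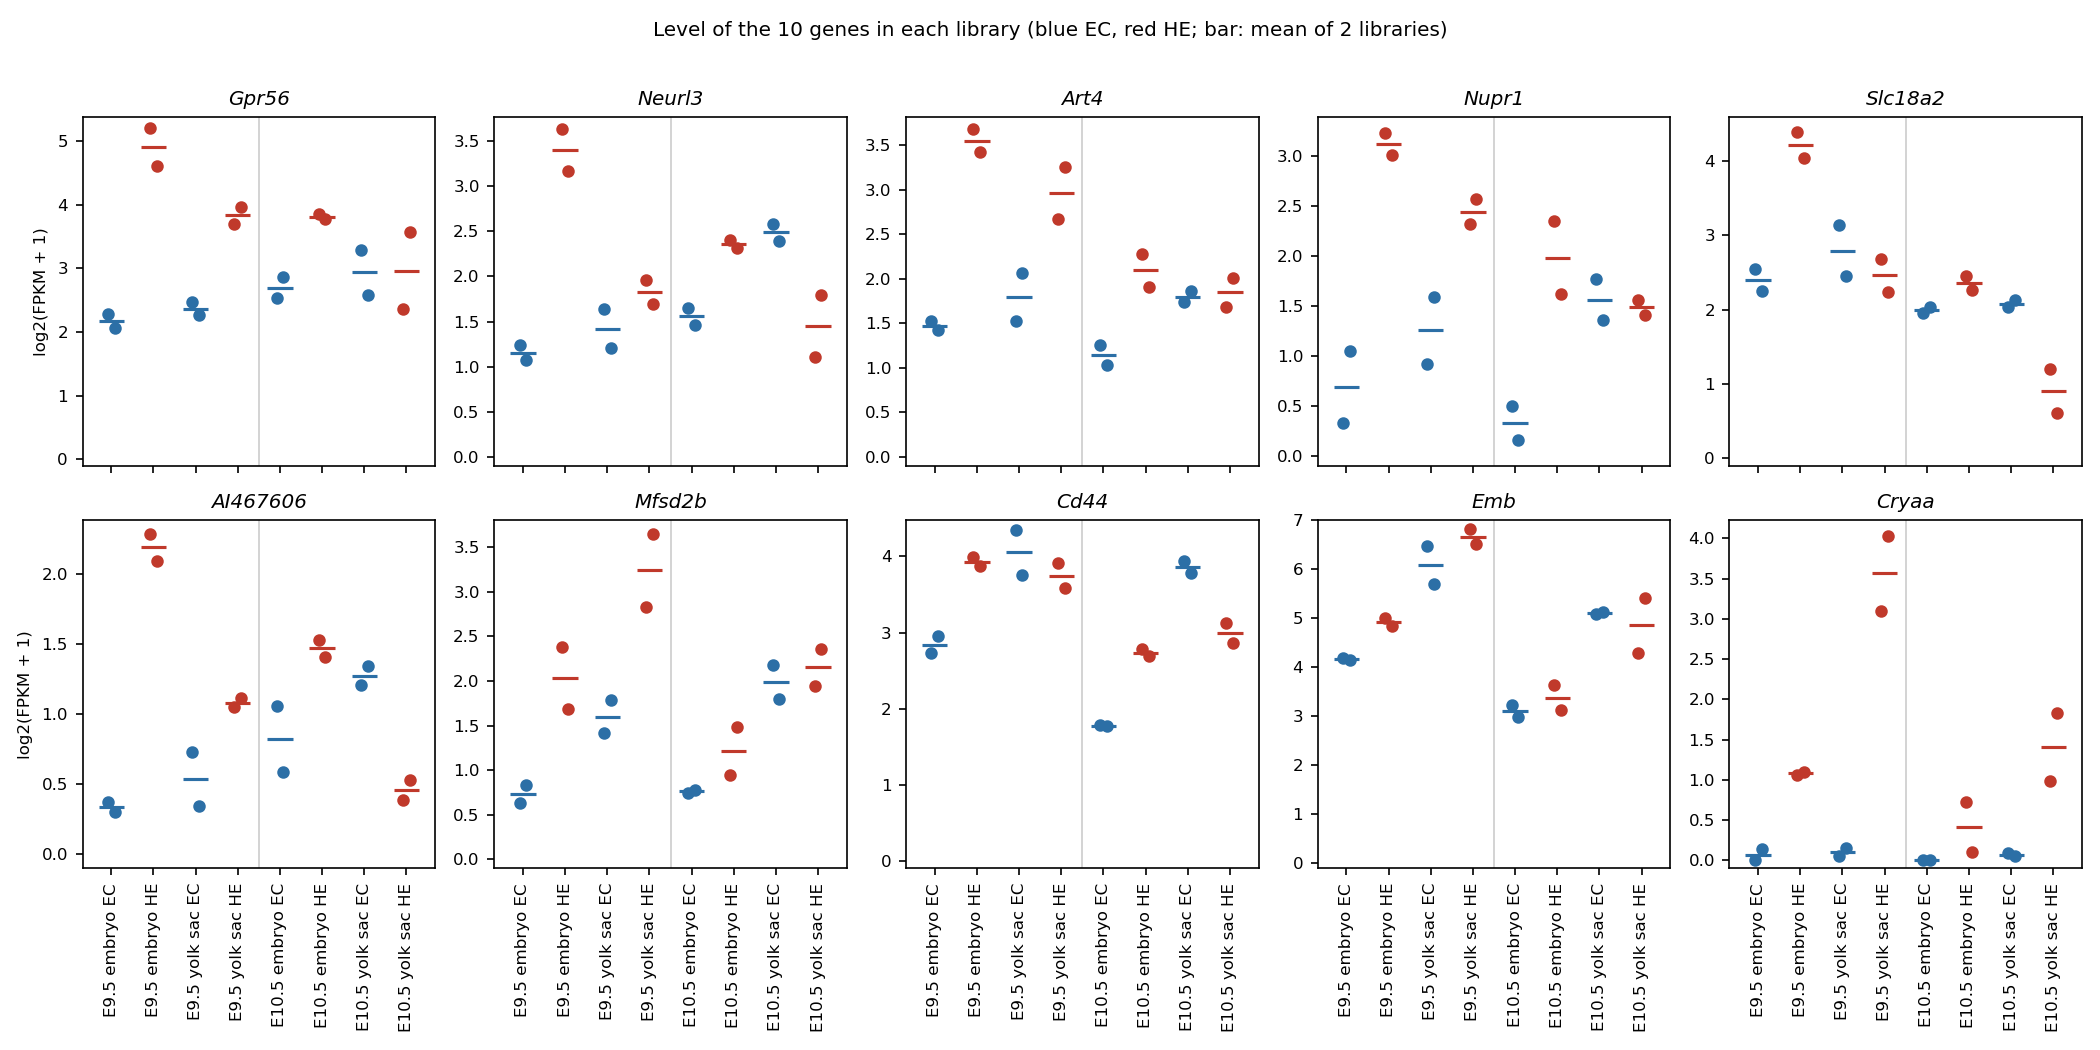
FPKM of each of the 10 genes in every library, on a log2(FPKM + 1) axis, by stage, site and sorted cell type, with the mean of the 2 libraries of a group as a bar. Gpr56, Neurl3, Art4, Nupr1, Slc18a2 and AI467606 peak in the HE of the E9.5 embryo, and Mfsd2b, Emb and Cryaa in the HE of the E9.5 yolk sac.

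The surface receptor Gpr56 was highest in the HE of the E9.5 embryo. There it was 36.1 and 23.3 FPKM, against 3.86 and 3.18 FPKM in the EC of the same region. In the E9.5 yolk sac it was 11.999 and 14.6 FPKM in HE and 4.52 and 3.83 FPKM in EC, and in the E10.5 embryo 13.4 and 12.7 FPKM in HE and 4.81 and 6.27 FPKM in EC. In these 3 settings both HE libraries stood above both EC libraries. In the E10.5 yolk sac the libraries labelled HE held 4.16 and 10.9 FPKM and the EC libraries 8.77 and 5.00 FPKM, so the groups overlapped. Differences are given from here on as mean log2(FPKM + 1) ± SE from a limma fit with n = 2 libraries per group, a scale that understates the change of genes with low levels. For Gpr56 the HE minus EC difference was 2.74 ± 0.36 in the E9.5 embryo, 1.46 ± 0.36 in the E9.5 yolk sac, 1.11 ± 0.36 in the E10.5 embryo and 0.03 ± 0.36 in the E10.5 yolk sac. Without E10.5 yolk sac HE replicate 2, the last difference was -0.57. In EC alone, the 4 E10.5 libraries (4.81 to 8.77 FPKM) all lay above the 4 E9.5 libraries (3.18 to 4.52 FPKM).

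Art4 followed the same order as Runx1 at the top. It was 11.8 and 9.72 FPKM in the HE of the E9.5 embryo, 5.38 and 8.54 FPKM in that of the E9.5 yolk sac, and 3.86 and 2.77 FPKM in that of the E10.5 embryo. Runx1 was 21.5 and 15.9 FPKM, 5.81 and 8.10 FPKM, and 3.74 and 3.13 FPKM in the same libraries. The EC libraries of these settings held between 1.05 and 3.18 FPKM of Art4, and every HE library lay above every EC library of its own setting. In the E10.5 yolk sac the libraries labelled HE, at 2.21 and 3.03 FPKM, enclosed the EC libraries, at 2.34 and 2.64 FPKM. The HE minus EC difference of Art4 was 2.08 ± 0.26 in the E9.5 embryo, 1.17 ± 0.26 in the E9.5 yolk sac, 0.95 ± 0.26 in the E10.5 embryo and 0.05 ± 0.26 in the E10.5 yolk sac.

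Nupr1 behaved much like Art4 but at lower levels. In the E9.5 embryo it was 8.39 and 7.05 FPKM in HE and 0.257 and 1.06 FPKM in EC, and in the E9.5 yolk sac 3.99 and 4.93 FPKM in HE and 0.895 and 2.01 FPKM in EC. In the E10.5 embryo it was 4.09 and 2.07 FPKM in HE and 0.413 and 0.119 FPKM in EC. The E10.5 yolk sac held 1.95 and 1.66 FPKM in the libraries labelled HE and 2.40 and 1.56 FPKM in EC. The groups were apart in the first 3 settings and overlapped in the fourth, where EC had its highest mean of the EC groups. The differences were 2.43 ± 0.33 in the E9.5 embryo, 1.19 ± 0.33 in the E9.5 yolk sac, 1.65 ± 0.33 in the E10.5 embryo and -0.08 ± 0.33 in the E10.5 yolk sac.

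Neurl3 and AI467606 shared a pattern that differed from that of Art4 in the yolk sac. Neurl3 was 11.4 and 7.98 FPKM in HE and 1.36 and 1.10 FPKM in EC of the E9.5 embryo, and 4.30 and 3.99 FPKM against 2.14 and 1.76 FPKM in the E10.5 embryo. In the E9.5 yolk sac the values were closer, 2.88 and 2.25 FPKM in HE and 2.11 and 1.301 FPKM in EC. For the E10.5 yolk sac the order was the opposite: the EC libraries, at 5.00 and 4.27 FPKM, lay above the libraries labelled HE, at 1.16 and 2.46 FPKM. The HE minus EC difference of Neurl3 went from 2.25 ± 0.26 in the E9.5 embryo through 0.81 ± 0.26 in the E10.5 embryo and 0.41 ± 0.26 in the E9.5 yolk sac to -1.04 ± 0.26 in the E10.5 yolk sac. The yolk sac EC of E10.5 was the second highest group for this gene and overlapped with the HE of the E10.5 embryo.

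AI467606 repeated this order at about a level of 1 FPKM. It was 3.88 and 3.27 FPKM in the HE of the E9.5 embryo against 0.297 and 0.236 FPKM in EC, and 1.89 and 1.66 FPKM against 1.09 and 0.500 FPKM in the E10.5 embryo. The yolk sac held 1.07 and 1.16 FPKM in HE and 0.662 and 0.270 FPKM in EC at E9.5. At E10.5 the libraries labelled HE held 0.306 and 0.447 FPKM and the EC libraries 1.31 and 1.54 FPKM. HE lay above EC in both libraries of the first 3 settings and below it in the fourth. The differences were 1.85 ± 0.21 and 0.65 ± 0.21 in the embryo at E9.5 and E10.5, and 0.54 ± 0.21 and -0.82 ± 0.21 in the yolk sac. In the embryo, the EC level of AI467606 was higher at E10.5 than at E9.5 by 0.48 ± 0.21 while the HE level was lower by 0.72 (-0.72 ± 0.21), so the gap narrowed from both sides. The EC replicates of the E10.5 embryo differed, and leaving out the second gave an HE minus EC difference of 0.41 for AI467606, while leaving out the first gave 0.89.

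Slc18a2, the monoamine transporter gene, was concentrated in 1 group. It was 20.1 and 15.5 FPKM in the HE of the E9.5 embryo, and none of the other 14 libraries exceeded 7.79 FPKM. The EC of the E9.5 embryo held 4.83 and 3.75 FPKM, and the E10.5 embryo held 4.49 and 3.79 FPKM in HE and 2.87 and 3.09 FPKM in EC. In the E9.5 yolk sac HE (5.45 and 3.73 FPKM) and EC (7.79 and 4.46 FPKM) overlapped. In the E10.5 yolk sac the libraries labelled HE were the lowest of all, at 1.31 and 0.532 FPKM, below the EC libraries at 3.10 and 3.36 FPKM. The difference was 1.82 ± 0.28 in the E9.5 embryo, 0.37 ± 0.28 in the E10.5 embryo, -0.33 ± 0.28 in the E9.5 yolk sac and -1.17 ± 0.28 in the E10.5 yolk sac. Without E9.5 yolk sac EC replicate 1 the value for the E9.5 yolk sac was 0.02. Mast cells, neurons and the megakaryocyte lineage also use this transporter. The summed level of 8 megakaryocyte markers was 21.1 to 23.6 FPKM in the HE and 11.1 to 12.2 FPKM in the EC of the E9.5 embryo, without overlap, and up to 118 FPKM in yolk sac libraries. The 6 mast cell markers summed to between 0.602 and 0.671 FPKM in the HE libraries of the E9.5 embryo and to no more than 2.16 FPKM in any library. Fcer1a was listed at 0 in all 16, and of the 6 only Hdc reached 1 FPKM in at least 2 libraries. The neural markers summed to 44.1 to 45.7 FPKM in the HE and 41.4 to 48.4 FPKM in the EC of the E9.5 embryo. The part of these cells in the level of Slc18a2 was not tested. An antisense gene overlaps Slc18a2 in the GENCODE M21 annotation, and whether counting used strand was not stated, so reads of both cannot be told apart.

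Mfsd2b, the sphingosine 1-phosphate exporter gene, was highest in the HE of the E9.5 yolk sac, at 6.13 and 11.6 FPKM against 1.67 and 2.45 FPKM in EC. The E9.5 embryo held 4.19 and 2.22 FPKM in HE and 0.554 and 0.777 FPKM in EC, and the E10.5 embryo 0.927 and 1.81 FPKM in HE and 0.679 and 0.711 FPKM in EC. In all 3 settings HE was above EC in both libraries. The E10.5 yolk sac held 2.85 and 4.14 FPKM in the libraries labelled HE and 3.51 and 2.48 FPKM in EC, and the groups overlapped. The HE minus EC difference was 1.64 ± 0.33 in the E9.5 yolk sac, 1.298 ± 0.33 in the E9.5 embryo, 0.46 ± 0.33 in the E10.5 embryo and 0.17 ± 0.33 in the E10.5 yolk sac. Erythroid markers moved with the tissue in the same direction as Mfsd2b. In the E9.5 yolk sac their summed level was 25914 to 54121 FPKM in HE and 14166 to 35952 FPKM in EC, ranges that overlap, and none of the 10 markers was at 0 in both libraries of a group. Their part in the level of Mfsd2b was not tested.

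Cd44 differed between HE and EC in opposite directions in the embryo and in the E10.5 yolk sac. Cd44 was 14.9 and 13.7 FPKM in HE and 5.61 and 6.72 FPKM in EC of the E9.5 embryo, and 5.86 and 5.43 FPKM in HE and 2.44 and 2.41 FPKM in EC of the E10.5 embryo. In the embryo HE was thus above EC at both stages, by 1.10 ± 0.21 and 0.96 ± 0.21. In the E9.5 yolk sac HE (14.1 and 10.98 FPKM) and EC (19.4 and 12.51 FPKM) overlapped, with a difference of -0.30 ± 0.21, which was -0.008 without E9.5 yolk sac EC replicate 1 and -0.60 without EC replicate 2. In the E10.5 yolk sac the libraries labelled HE, at 7.72 and 6.28 FPKM, lay below EC, at 14.4 and 12.7 FPKM, with a difference of -0.87 ± 0.21. Among EC, the yolk sac libraries (12.51 to 19.4 FPKM) all lay above the embryo libraries (2.41 to 6.72 FPKM), a difference of 1.65 ± 0.15 over both stages with n = 4 libraries per site. Macrophage markers, 9 genes, moved with site too, summing to between 6.35 and 14.9 FPKM in the embryo libraries and between 37.3 and 158 FPKM in those of the yolk sac. Their part in the level of Cd44 was not tested.

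Emb had the highest mean over all libraries of the 10 genes, although Gpr56 exceeded it in 3 of the 4 HE libraries of the embryo. Emb was 111 and 90.3 FPKM in HE and 87.7 and 50.7 FPKM in EC of the E9.5 yolk sac, and 30.9 and 27.5 FPKM in HE and 17.3 and 16.7 FPKM in EC of the E9.5 embryo. At E10.5 the embryo held 11.4 and 7.69 FPKM in HE and 8.36 and 6.94 FPKM in EC. The E10.5 yolk sac held 18.5 and 41.8 FPKM in the libraries labelled HE and 33.0 and 33.9 FPKM in EC. HE was above EC at E9.5 at both sites and overlapped with it at E10.5 at both. The HE minus EC difference was 0.75 ± 0.33 in the E9.5 embryo and 0.58 ± 0.33 in the E9.5 yolk sac, where it was 0.97 without E9.5 yolk sac EC replicate 1 and 0.19 without EC replicate 2. The yolk sac minus embryo difference was 1.75 ± 0.33 in HE and 1.91 ± 0.33 in EC at E9.5. At E10.5 the HE minus EC difference was 0.27 ± 0.33 in the embryo and -0.25 ± 0.33 in the yolk sac, where it was 0.31 without E10.5 yolk sac HE replicate 1. A predicted gene on the opposite strand, Gm17509, overlaps Emb in the annotation and reached at most 0.091 FPKM.

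Cryaa was at or below 0.110 FPKM in every EC library. It was 7.59 and 15.3 FPKM in the HE of the E9.5 yolk sac, 1.09 and 1.14 FPKM in that of the E9.5 embryo, 0.646 and 0.0746 FPKM in that of the E10.5 embryo and 0.971 and 2.55 FPKM in the HE-labelled libraries of the E10.5 yolk sac. In EC it was 0.0351 and 0.110 FPKM in the E9.5 yolk sac and 0.0651 and 0.0345 FPKM in the E10.5 yolk sac. In the E9.5 embryo the EC libraries listed it at 0 and 0.0994 FPKM, and in the E10.5 embryo both listed it at 0. It was the only one of the 10 with HE above EC without overlap in all 4 settings (all genes 2.23%), including the E10.5 yolk sac, where Runx1 did not separate the libraries. In the E10.5 embryo this rests on an HE library at 0.0746 FPKM, a value that EC libraries of other groups exceed. The differences were 3.46 ± 0.33 in the E9.5 yolk sac, 1.33 ± 0.33 in the E10.5 yolk sac, 1.01 ± 0.33 in the E9.5 embryo and 0.41 ± 0.33 in the E10.5 embryo. Other lens genes did not accompany it: 11 lens markers summed to between 2.32 and 2.94 FPKM in the HE of the E9.5 yolk sac and to no more than 6.12 FPKM in any library, and Cryba2 was listed at 0 in all 16. An antisense gene overlaps Cryaa in the annotation, so its reads carry the same uncertainty of strand as those of Slc18a2.

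Put together by setting, HE was above EC without overlap for 10 of the 10 genes in the E9.5 embryo, where this held for 30.6% of all 13955 genes. It held for 8 of the 10 in the E9.5 yolk sac (all genes 23.2%), where Slc18a2 and Cd44 overlapped. In the E10.5 embryo it held for 9 of the 10 (all genes 22.2%), where Emb overlapped. Cryaa is among these 9 with an HE library at 0.0746 FPKM against 0 in EC. Within the E10.5 yolk sac only Cryaa was higher in the libraries labelled HE without overlap (all genes 22.9%). Neurl3, Slc18a2, AI467606 and Cd44 were lower (all genes 23.9%), and the other 5 overlapped. Since the genes were picked on this contrast, these counts describe them and nothing is read from their distance to the shares of all genes. The median HE minus EC difference of the 10 genes was 1.84 in the E9.5 embryo, 0.87 in the E9.5 yolk sac, 0.73 in the E10.5 embryo and -0.16 in the E10.5 yolk sac, and that of all genes lay between 0.01 and 0.03. Endothelial markers moved in that tissue as well: 10 of the 10 passed the limma test as lower in the libraries labelled HE (adjusted p under 0.05 over 13955 genes, passed in this direction by 6.48% of all), and of the 10 mesenchyme and somite markers none passed it as higher and 2 as lower, Col1a1 and Tcf15, although the list median was above 0, at 0.55. The mean log2 level of these 10 lay between 4.37 and 4.66 in the HE-labelled libraries and between 5.02 and 5.06 in EC, although their summed FPKM was higher in the former, at 5440 to 6501 against 2984 to 3735. Col1a1 was listed at 0 in both HE-labelled libraries and at up to 1817 FPKM elsewhere. These zeros give its call and lower the mean log2 level of the list, which was not computed without it. The part of these marker differences in the values of Neurl3, Slc18a2, AI467606 and Cd44 was not tested. With both libraries left out, the difference averaged over the other 3 settings was 1.77 ± 0.15 instead of 1.33 ± 0.18 for Gpr56, 1.15 ± 0.13 instead of 0.60 ± 0.13 for Neurl3, 0.62 ± 0.15 instead of 0.17 ± 0.14 for Slc18a2 and 0.58 ± 0.12 instead of 0.22 ± 0.11 for Cd44.

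**Figure D2:**
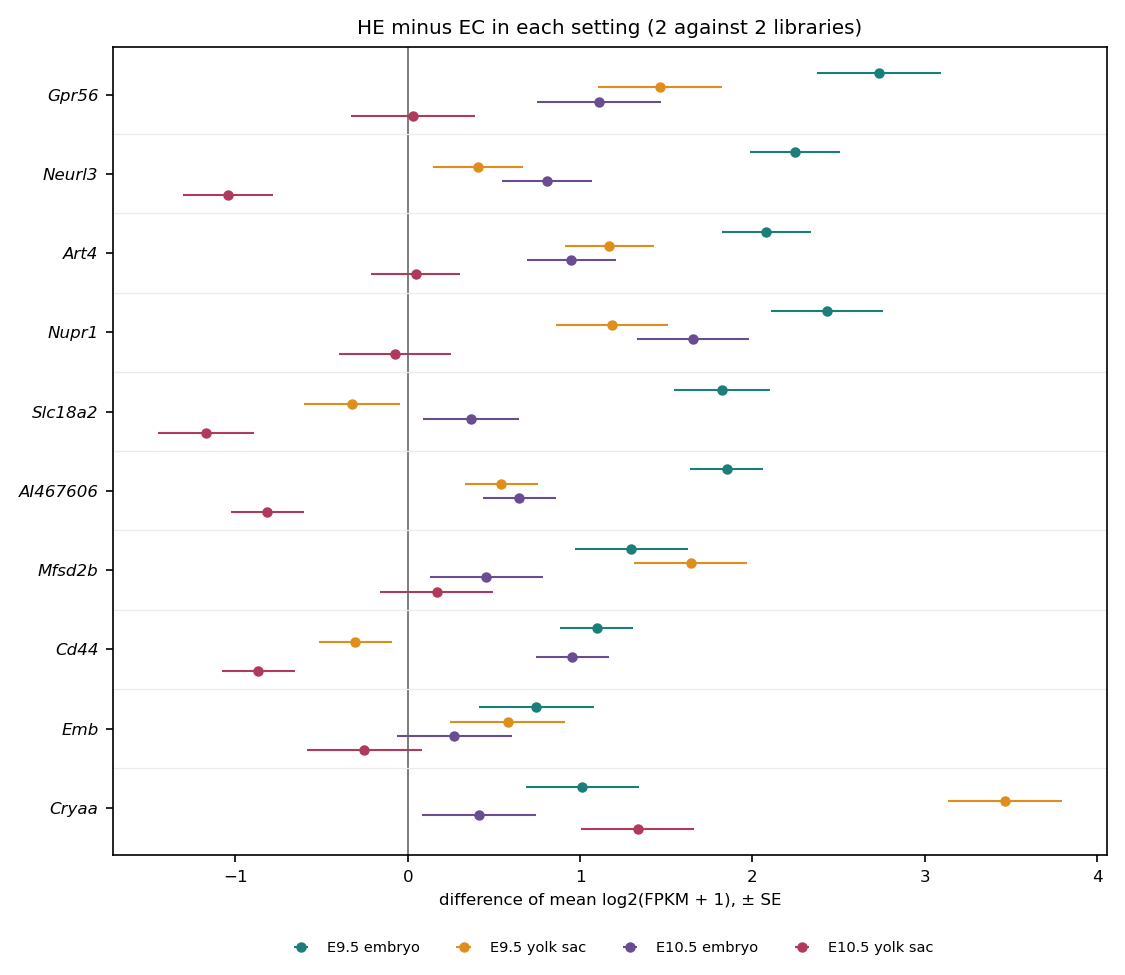
Difference of mean log2(FPKM + 1) between HE and EC, ± SE from limma, for each of the 10 genes in each setting of stage and site, 2 libraries against 2. All 10 genes are to the right of 0 in the E9.5 embryo, and Neurl3, Slc18a2, AI467606 and Cd44 are to the left in the E10.5 yolk sac. Emb and Nupr1 are to the left there as well, by less than their SE.

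Sequence just upstream of the genes was set beside these patterns, because 6 of them peaked in the same group. RefSeq promoters of the GRCm38.p6 build, from 250 bases before to 50 bases after the start of the gene, were found for all 10 genes, 11 promoters in all since Gpr56, listed there as Adgrg1, has 2. They were searched on both strands for the RUNX motif TGTGGT, for the GATA motif AGATAA and for the ETS motif CAGGAA, a match on the opposite strand reading as the reverse complement. No matches overlapped each other. The RUNX motif was in 1 of the 11 promoters, that of AI467606, and in 16.8% of all 32817 mouse promoters. The GATA motif was in 4, those of Neurl3, Art4, Slc18a2 and Cd44, and in 11.2% of all, and the ETS motif in 3, those of Gpr56, AI467606 and Cd44, and in 30.6% of all. The following are the 4 promoters with a RUNX or GATA match among the genes that peaked in the HE of the E9.5 embryo, 5′ to 3′ on the strand of the gene, with those matches in capitals.
AI467606: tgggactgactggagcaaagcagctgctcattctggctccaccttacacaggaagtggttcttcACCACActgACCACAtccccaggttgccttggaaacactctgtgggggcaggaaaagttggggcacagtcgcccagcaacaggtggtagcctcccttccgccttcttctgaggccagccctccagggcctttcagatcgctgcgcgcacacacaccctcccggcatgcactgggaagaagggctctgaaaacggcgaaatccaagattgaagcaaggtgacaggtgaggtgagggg
Neurl3: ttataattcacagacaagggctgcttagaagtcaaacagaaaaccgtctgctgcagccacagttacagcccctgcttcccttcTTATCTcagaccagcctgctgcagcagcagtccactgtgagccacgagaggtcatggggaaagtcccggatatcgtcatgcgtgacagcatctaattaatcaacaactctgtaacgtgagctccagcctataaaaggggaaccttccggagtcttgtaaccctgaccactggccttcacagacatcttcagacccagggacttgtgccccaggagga
Art4: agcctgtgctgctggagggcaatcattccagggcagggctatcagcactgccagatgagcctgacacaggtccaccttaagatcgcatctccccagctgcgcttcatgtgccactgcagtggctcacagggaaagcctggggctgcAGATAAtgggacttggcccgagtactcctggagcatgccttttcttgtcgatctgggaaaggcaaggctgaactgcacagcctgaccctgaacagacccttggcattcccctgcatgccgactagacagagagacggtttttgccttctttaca
Slc18a2: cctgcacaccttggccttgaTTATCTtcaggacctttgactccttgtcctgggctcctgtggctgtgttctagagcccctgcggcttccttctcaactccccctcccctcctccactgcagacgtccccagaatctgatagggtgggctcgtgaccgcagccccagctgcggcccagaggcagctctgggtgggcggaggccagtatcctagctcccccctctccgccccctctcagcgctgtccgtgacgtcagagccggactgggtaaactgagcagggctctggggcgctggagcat
The AI467606 promoter lies at chr7:127091186-127091485 on the plus strand, and its RUNX matches begin 186 and 177 bases before the start. The Neurl3 promoter is chr1:36273376-36273675 on the minus strand, with its GATA match 167 bases before the start, and the Art4 promoter chr6:136857551-136857850 on the minus strand, with its match 104 bases before. The Slc18a2 promoter is chr19:59260628-59260927 on the plus strand, with its match 230 bases before the start. Neurl3 and AI467606, the pair most alike in level, shared none of the 3 motifs. A match is a run of letters only, the lack of one says only that the letters are not in this window, and binding was not measured here.

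The genes fell into loose sets by their levels over the 16 libraries. Neurl3 and AI467606 were the pair most alike, with Pearson's r = 0.958 of log2(FPKM + 1), and r = 0.907 without the 2 HE libraries of the E9.5 embryo. Art4 and Nupr1 followed with r = 0.938 (0.893 without these libraries). Gpr56 came next and was near to both pairs. Its r was 0.851 with Art4 (0.688), 0.8485 with AI467606 (0.676), 0.847 with Neurl3 (0.660) and 0.829 with Nupr1 (0.688). For Mfsd2b and Cryaa r was 0.832 (0.843) and for Cd44 and Emb 0.812 (0.851). The correlation of Slc18a2 with Runx1 and AI467606 rested on the 2 HE libraries of the E9.5 embryo. With Runx1 it was 0.696 with all libraries and 0.176 without them, and with AI467606 it was 0.672 and 0.216. Other correlations fell as well: with Runx1, that of Neurl3 went from 0.779 to 0.426 and that of AI467606 from 0.802 to 0.5055. Art4 and Nupr1 kept theirs with Runx1, at 0.966 and 0.927 with all libraries and 0.936 and 0.899 without. These correlations run over n = 16 libraries that share the group structure and the choice of genes, and they are descriptions with no test.

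**Figure D3:**
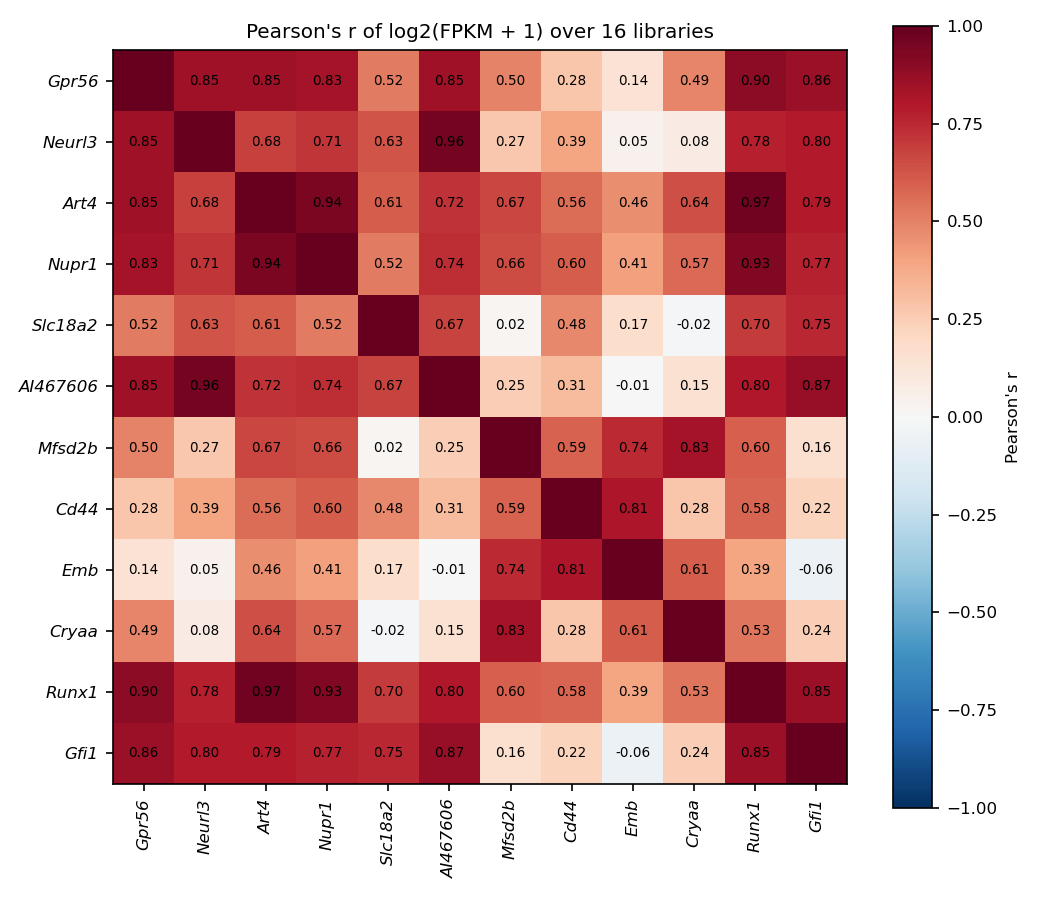
Pearson's r of log2(FPKM + 1) over the 16 libraries between each pair of the 10 genes and with Runx1 and Gfi1, as a colour scale with the value in each cell. Neurl3 with AI467606 (0.958) and Art4 with Nupr1 (0.938) are the most alike among the 10.

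Among the 10323 other genes with a mean of at least 5 FPKM in their highest group, Runx1 was the gene most like Gpr56 (r = 0.896), Art4 (r = 0.966) and Nupr1 (r = 0.927). Spi1, the gene of the myeloid transcription factor PU.1, came next for Gpr56 (r = 0.884), and Cyb5r3, a cytochrome b5 reductase, for Art4 (r = 0.902) and Nupr1 (r = 0.866). Adck5 was the gene most like Neurl3 (r = 0.906) and AI467606 (r = 0.944). Gfi1, a repressor that acts downstream of Runx1, was among the nearest 3 for Neurl3 (r = 0.795) and for AI467606 (r = 0.872). Without the HE libraries of the E9.5 embryo, r with Gfi1 was 0.470 for Neurl3 and 0.686 for AI467606. For Slc18a2 the nearest were Rab27a, a small GTPase of vesicle release (r = 0.896), Ager (r = 0.889) and Vegfb (r = 0.884). Cdc25b, a phosphatase of the cell cycle (r = 0.932), and Slc25a37, the mitochondrial iron importer mitoferrin (r = 0.932), were among the nearest 3 for Mfsd2b. For Emb the nearest was Slc16a1, the gene of the lactate transporter MCT1 (r = 0.945), at 78.0 and 74.1 FPKM in HE and 67.4 and 53.3 FPKM in EC of the E9.5 yolk sac and at 29.3 FPKM or less in the embryo libraries. Prickle1 (r = 0.919), Hmha1 (r = 0.914) and Was (r = 0.914) were nearest to Cd44, and Ssx2ip (r = 0.884), C330013J21Rik (r = 0.833) and Cdc25b (r = 0.809) to Cryaa. All values of r are over 16 libraries and describe likeness of level only.

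**Figure D4:**
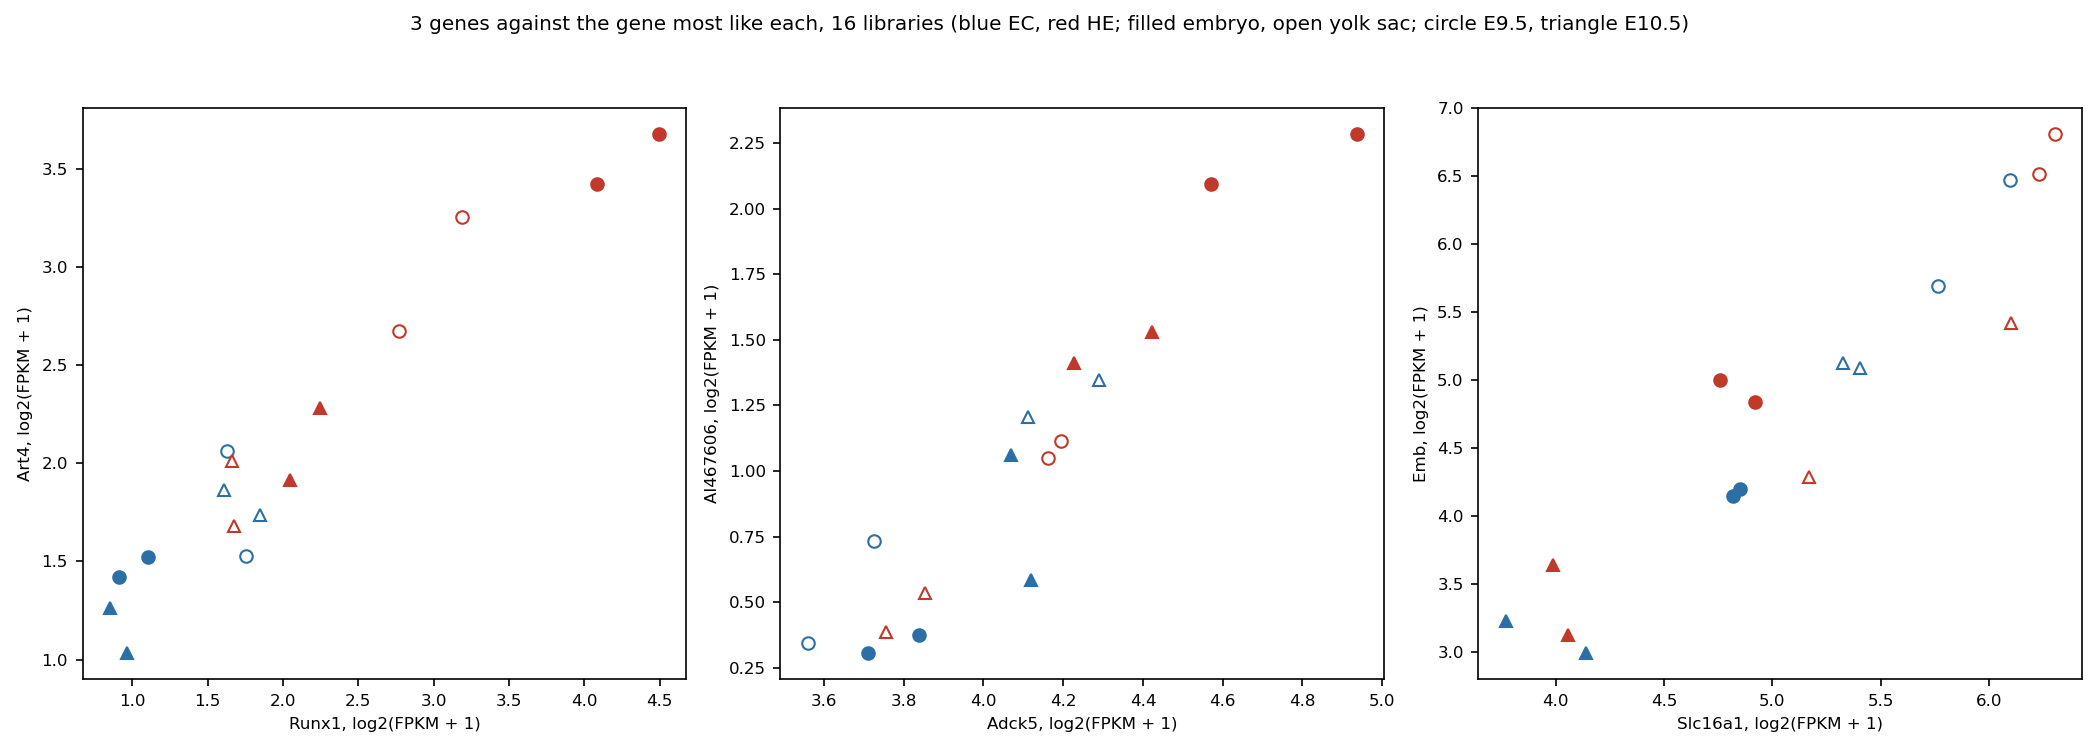
Level of Art4, AI467606 and Emb against that of the gene most like each over the 16 libraries, on log2(FPKM + 1) axes, 1 panel per gene and 1 point per library (blue EC, red HE, filled embryo, open yolk sac, circles E9.5, triangles E10.5). The closest pair is Art4 with Runx1 (r = 0.966), followed by Emb with Slc16a1 (r = 0.945) and AI467606 with Adck5 (r = 0.944).

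The same genes went separate ways between sites. In HE, the yolk sac minus embryo difference over both stages (n = 4 libraries per site) was -1.60 ± 0.20 for Slc18a2, -1.24 ± 0.19 for Neurl3, -1.06 ± 0.15 for AI467606 and -0.96 ± 0.25 for Gpr56. It was 1.61 ± 0.24 for Emb, 1.74 ± 0.23 for Cryaa and 1.07 ± 0.23 for Mfsd2b. Cd44 differed by 0.04 ± 0.15, and by -0.19 ± 0.21 without the HE-labelled libraries of the E10.5 yolk sac. Without those libraries the contrast held E9.5 alone, with n = 2 libraries per site. The values were then -1.76 ± 0.25 for Slc18a2, -1.57 ± 0.22 for Neurl3, -1.11 ± 0.21 for AI467606, 1.75 ± 0.25 for Emb and 2.48 ± 0.28 for Cryaa. Over both stages Neurl3 and AI467606 were lower in all 4 yolk sac HE libraries than in all 4 embryo HE libraries, an order found in 16.6% of all genes, and none of the 10 was higher in all 4, which held for 12.3%. At E9.5 alone Gpr56, Neurl3, Art4, Nupr1, Slc18a2 and AI467606 were lower in yolk sac HE without overlap (all genes 34.6%), Mfsd2b, Emb and Cryaa were higher (all genes 27.6%) and Cd44 overlapped. In EC none of the 10 was lower in the yolk sac. There Art4, Mfsd2b, Cd44 and Emb were higher in all 4 yolk sac libraries (all genes 13.4%), and the differences ran from 0.05 ± 0.23 for Cryaa to 1.96 ± 0.24 for Emb. Gpr56, Neurl3, Art4, Nupr1, Slc18a2 and AI467606 thus stood lower in yolk sac than in embryo HE and higher in yolk sac than in embryo EC by their mean log2 levels. The median of all genes lay at -0.14 in HE and -0.10 in EC for the same contrasts.

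Between stages, each of the 10 genes was lower at E10.5 than at E9.5 in HE by its mean. In the embryo all 10 were lower at E10.5 without overlap (all genes 24.6%), and the differences ran from -0.67 for Cryaa to -1.86 for Slc18a2. In the yolk sac the libraries labelled HE were lower for 9 of the 10 (all genes 36.2%), and Neurl3 overlapped. Over both sites Art4 and Cd44 were lower in all 4 E10.5 HE libraries than in all 4 of E9.5, which held for 2.21% of all genes. In EC the direction varied. Gpr56 was higher in all 4 libraries of E10.5 (all genes 1.49%) and Slc18a2 lower in all 4 (all genes 3.37%). The E10.5 minus E9.5 difference in EC was -1.02 ± 0.24 for Emb and -0.63 ± 0.15 for Cd44, and 0.74 ± 0.19 for Neurl3 and 0.61 ± 0.15 for AI467606. The median difference of the 10 genes was -1.01 in HE and -0.04 in EC, and that of all genes -0.08 and -0.07. The rule that picked the genes used these contrasts too, so these values are a description.

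**Figure D5:**
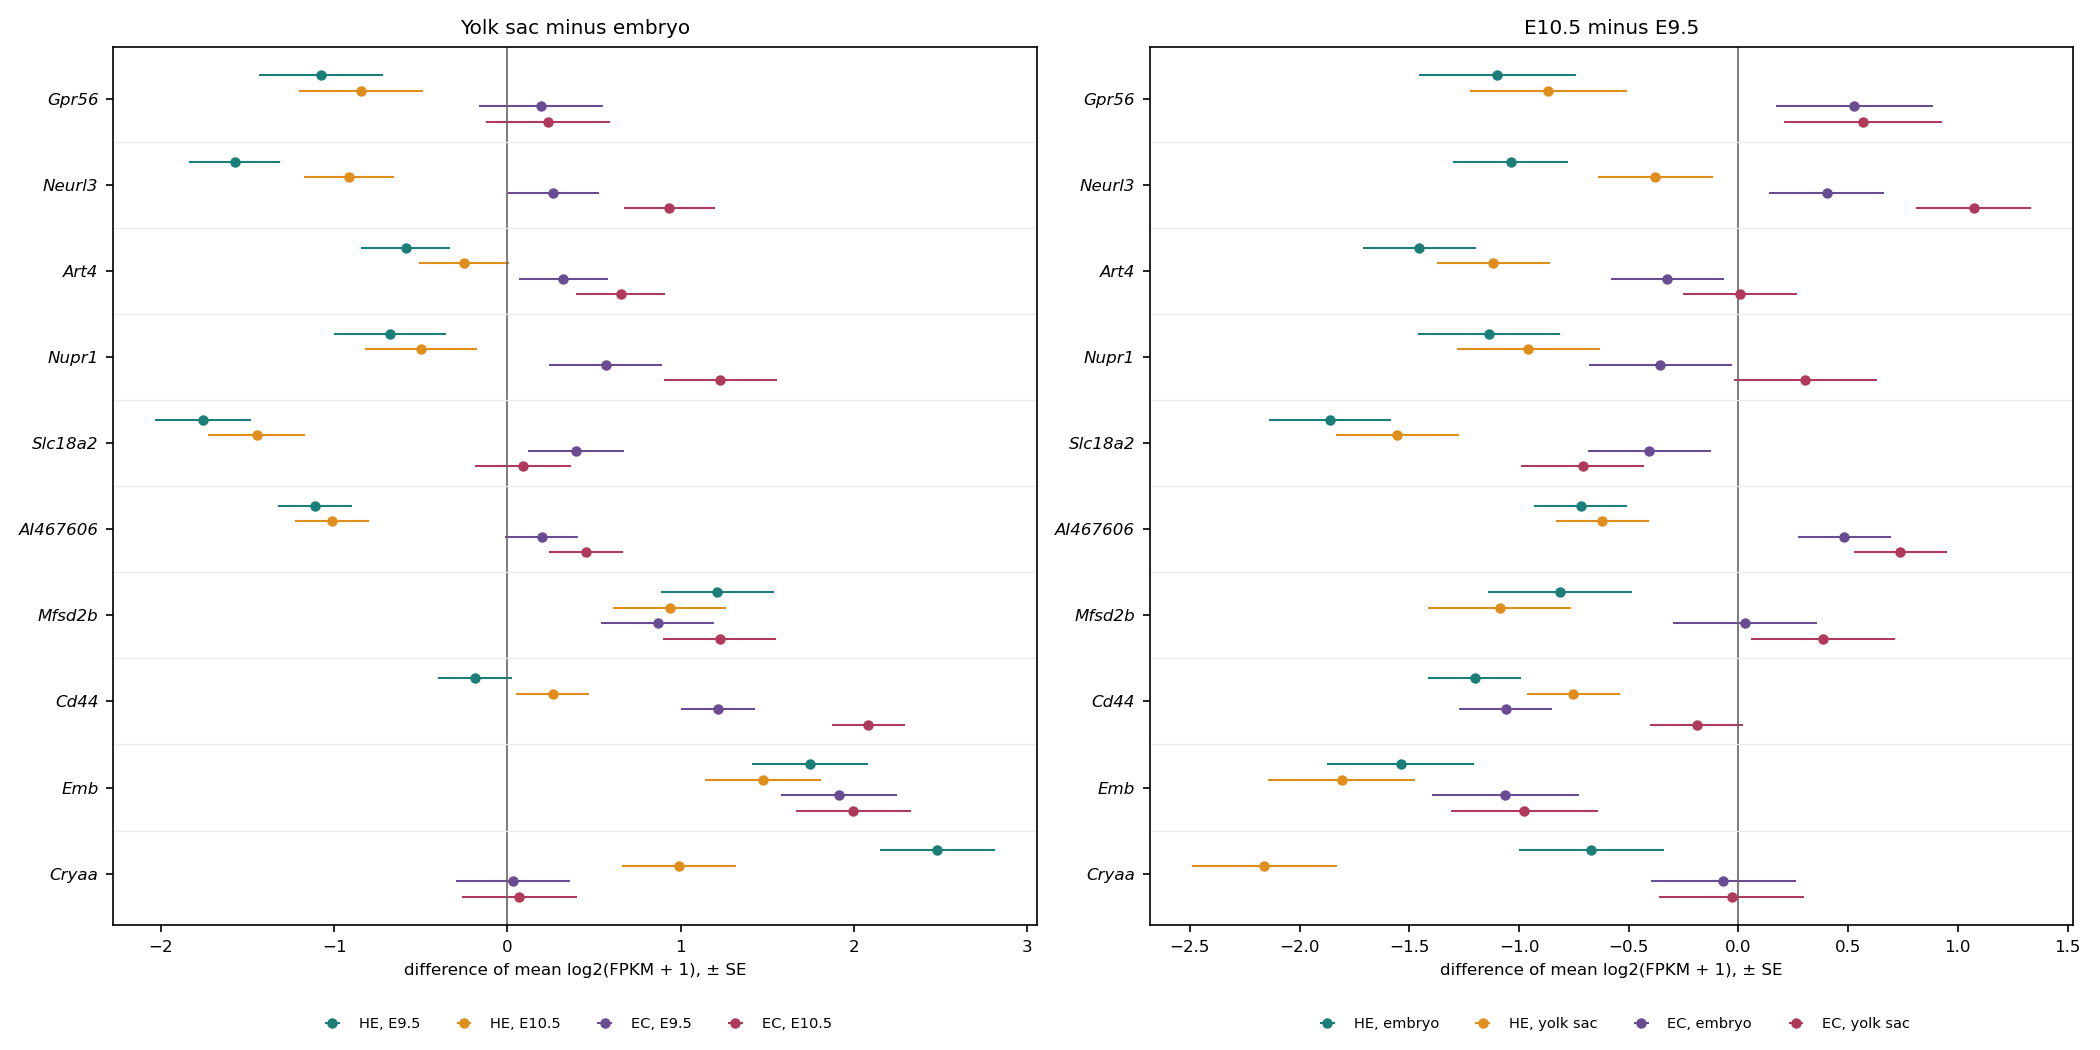
Difference of mean log2(FPKM + 1), ± SE from limma, for each of the 10 genes, between yolk sac and embryo (left) and between E10.5 and E9.5 (right), for each sorted cell type and each level of the other factor, 2 libraries against 2. In the left panel Mfsd2b, Emb and Cryaa are to the right of 0 in all 4 comparisons, and in the right panel all HE points are to the left of 0.

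Genes of the same pathways were examined to see whether these patterns went with those of their partners. Of 10 such lists, that of blood emergence regulators was the only one with a gene that passed the limma test between HE and EC within the E9.5 embryo, the E9.5 yolk sac or the E10.5 embryo. Few genes passed it there at all: 22 in the E9.5 embryo (0.158%), 2 in the E9.5 yolk sac (0.0143%) and 29 in the E10.5 embryo (0.208%), while 1225, 1336 and 1029 had an unadjusted p under 0.05. P-values here measure only the spread between these libraries, which may be technical. In the E9.5 embryo 5 of 15 rose in HE (0.143% of all genes did) and none fell: Gfi1 by 4.24 ± 0.34 (adjusted p = 0.000278), Runx1 by 3.28 ± 0.21, Spi1 by 2.81 ± 0.35, the integrin subunit Itgb3 by 2.60 ± 0.28 and Bcl11a by 1.49 ± 0.25 (adjusted p = 0.0448). The sort gate on Runx1-GFP set the direction of Runx1, so its call is a check of the sort and not a finding, here and in the E10.5 embryo. The counts of this list include Runx1. All 10 lists were chosen with earlier results of these data known, so its counts and its place among them are a description. Bcl11a kept its call in 2 of 16 fits that each left out 1 library. In the E10.5 embryo Gfi1 (2.37 ± 0.34, adjusted p = 0.0164) and Runx1 (1.24 ± 0.21) rose in HE (0.0860% of all genes did). In the yolk sac HE, 10 of the 15 were lower than in embryo HE (22.3% of all genes were) and Itga2b, which encodes CD41, was higher, and without the HE-labelled libraries of the E10.5 yolk sac 9 were lower. The median of the list was -0.90, against -0.14 for all genes. Gfi1 fell by 2.89 (-2.89 ± 0.24, adjusted p = 3.97e-06).

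Partners of the transporter genes differed by site in both cell types. Of 7 tested embigin relatives and lactate transport genes, 3 were higher in yolk sac than in embryo HE (14.6% of all genes were) and 2 lower, and the counts in EC were 3 (15.4%) and 2 (18.7%). The median of the list was 0.10 in HE. The third gene called higher in HE, Slc16a7 (1.13 ± 0.22), lost the call without the HE-labelled libraries of the E10.5 yolk sac. Slc16a1 was higher by 1.52 ± 0.17 in HE (adjusted p = 5.09e-05) and by 1.25 ± 0.17 in EC, and Nptn, the gene of the embigin relative neuroplastin, by 1.07 ± 0.12 in both. Slc16a3, which encodes the lactate exporter MCT4, was lower, by -0.97 ± 0.19 in HE and -1.003 ± 0.19 in EC. Ldha was lower by -0.53 ± 0.18 in HE (adjusted p = 0.0346) and lost the call without the HE-labelled libraries of the E10.5 yolk sac. The list of 11 sphingosine 1-phosphate genes included Mfsd2a, there only as a relative of Mfsd2b by name. The phosphatase gene Sgpp1 (0.97 ± 0.19) and Apom, the carrier of this lipid in plasma (6.45 ± 0.45, mean 333 against 3.86 FPKM), were higher in yolk sac HE. Mfsd2a (-1.55 ± 0.14) and the receptor gene S1pr1 (-1.33 ± 0.22) were lower, with a list median of -0.20. Apom moved with the visceral endoderm markers given above, and their part in its level was not tested. Of 10 monoamine genes, Maob, which encodes a monoamine oxidase, was higher in yolk sac HE by 3.85 ± 0.18 (adjusted p = 8.8e-08). Slc6a4, the serotonin transporter gene, was higher by 2.08 ± 0.31 (adjusted p = 0.000289). With Ddc and Hdc 4 were higher in all (14.6% of all genes were), with a list median of 0.13. Slc18a1 and Dbh were lower in yolk sac HE, from means of 1.72 and 1.61 FPKM in embryo HE, and they and Hdc lost the call without the HE-labelled libraries of the E10.5 yolk sac.

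Lists related to the surface genes also held calls in both directions. Of 12 tested hyaluronan genes and Cd44 linkers, Lyve1 (4.25 ± 0.45), Stab2 (3.63 ± 0.45), Vcan (1.93 ± 0.38) and Ezr (1.46 ± 0.23) were higher in yolk sac HE, and Hyal2 and Msn were lower, with a list median of -0.20. The first 3 stayed called without the HE-labelled libraries of the E10.5 yolk sac. Of 13 tested ADP-ribosyltransferase and blood group genes, 8 were higher (14.6% of all genes) and 2 lower (22.3%) in yolk sac HE, and 11 were higher (15.4%) and 1 lower (18.7%) in yolk sac EC, with list medians of 0.99 and 1.47. Without the HE-labelled libraries of the E10.5 yolk sac, 6 were higher in HE, Rhd (1.497 ± 0.29), Icam4 (1.59 ± 0.25) and Slc4a1 (2.10 ± 0.50) among them. These genes moved with the erythroid markers, a list that shares genes with this one, Slc4a1 among them, and the 2 called lower, Art3 and Art5, are of the ADP-ribosyltransferase family like Art4, with means of 1.504 and 1.35 FPKM in embryo HE. Both lost the call without the HE-labelled libraries of the E10.5 yolk sac, and Art3 was called in 11 of the 16 fits that left out 1 library. Of 7 tested relatives and partners of Gpr56, the neighbouring adhesion receptor gene Gpr97 was lower in the yolk sac in HE (-2.46 ± 0.23, adjusted p = 1.16e-05) and in EC (-2.24 ± 0.23, adjusted p = 2.69e-05), and Col3a1, a known ligand of Gpr56, was higher in HE (2.77 ± 0.49) and in EC (2.29 ± 0.49), with a list median of -0.20 in HE. Col3a1 is also one of the 10 mesenchyme and somite markers. Of these, 4 were called higher (14.6% of all genes) and 5 lower (22.3%) in yolk sac HE. In yolk sac EC the counts were 4 (15.4%) and 4 (18.7%). Col1a2 (3.17 ± 0.49 in HE and 2.55 ± 0.49 in EC) and Lum (2.74 ± 0.56 and 2.16 ± 0.56) were called higher with Col3a1, and their part in its level was not tested. Of the relatives of Gpr56 in HE, only Gpr97 stayed called without the HE-labelled libraries of the E10.5 yolk sac.

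Among genes related to the intracellular proteins, 10 were tested from a list of Neuralized and Mindbomb ligases, Notch ligands and the receptor gene Notch1. Of these, 6 were lower in yolk sac HE (22.3% of all genes) and none was higher (14.6%), with a list median of -0.825. Jag2 fell most, by 3.09 (-3.09 ± 0.18, adjusted p = 3.07e-07), and it was the only 1 of the 6 that stayed called without the HE-labelled libraries of the E10.5 yolk sac. Endothelial markers were low in those libraries, as given above, and their part in the calls of Dll4, Jag1 and Notch1 was not tested. Of 11 tested genes of the integrated stress response, the pathway that can induce Nupr1, 4 were higher (14.6% of all genes) and 4 lower (22.3%) in yolk sac HE, with a list median of 0.19. Trib3 differed by 0.91 ± 0.29 and Ddit4 by -2.12 ± 0.28. Without the HE-labelled libraries of the E10.5 yolk sac, Trib3 stayed higher and Ddit4, Atf3 and Vldlr stayed lower, while Sesn2, Herpud1, Hspa5 and Chac1 lost the call. Trib3 and Hspa5 were each called in 12 of the 16 fits that left out 1 library. None passed the test between HE and EC at E9.5. Of 7 tested small heat shock protein genes, Hspb1 (0.85 ± 0.19) and Cryab (1.22 ± 0.43, adjusted p = 0.045) were higher in yolk sac HE, with a list median of 0.41. Both lost the call without the HE-labelled libraries of the E10.5 yolk sac, and none of the 7 passed the test between HE and EC in any setting.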

How the data were processed

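RNA-seq was measured in 16 libraries, 2 for each of 8 groups taken from the sample titles. The values are FPKM per gene symbol as deposited by the authors, with no counts, so the depth of each library is unknown and no counting interval is given. Cufflinks, featureCounts and the genome build mm9 are named per the submitters' processing notes, without versions or roles. The aligner, the annotation and the handling of strand and multiply mapped reads were not given in those sources.

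Values were tested as log2(FPKM + 1), a pseudocount of 1, with limma 3.58.1 in R 4.3.3. A mean for each of the 8 groups was fitted on all 16 libraries (8 residual degrees of freedom, empirical Bayes with a mean trend) over the 13955 genes with at least 1 FPKM in at least 2 libraries, and 19576 symbols were not tested. P-values were adjusted by Benjamini-Hochberg over these genes at a threshold of 0.05. No p is printed for the 10 genes, which were chosen on the same contrasts. The members, the related gene lists and the marker lists were chosen with earlier results of these data known. Genes most like a member were the 3 with the highest Pearson's r over 16 libraries among genes with at least 5 FPKM in their highest group. Related genes were named if they passed the test, and some genes that met these rules are not reported here. Promoters came from RefSeq (GRCm38.p6), overlapping genes from GENCODE M21. Tables were handled with Python 3.11.15 and pandas 2.3.3, and the fit was tested on simulated data. The alternatives were a pseudocount of 0.1, no filter, upper quartile scaling, the replicate number as a block, each library left out in turn and both HE-labelled libraries of the E10.5 yolk sac left out.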

Additional observations from a re-analysis of the deposited data

Results flagged for a closer look

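In 6 comparisons of 2 settings, both HE libraries lay above both EC libraries in one setting and below them in the other. None of these differences was tested, and all rest on the HE-labelled libraries of the E10.5 yolk sac, in which endothelial markers were low. The HE minus EC difference in the E10.5 yolk sac, less that in the E10.5 embryo, was -1.85 for Neurl3, -1.54 for Slc18a2, -1.46 for AI467606 and -1.82 for Cd44, on the log2(FPKM + 1) scale. Less that in the E9.5 yolk sac, it was -1.45 for Neurl3 and -1.36 for AI467606. For Neurl3 and AI467606 the EC libraries of the E10.5 yolk sac were also the highest of all EC groups, at 5.00 and 4.27 FPKM and at 1.31 and 1.54 FPKM.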

How the results depend on the processing

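Of 1880 values of the 10 genes' differences under the alternatives, 1793 moved by no more than the spread between replicates. Many of these could not move, so the count is no measure of stability. Leaving out a library of a group outside a comparison keeps the difference of that comparison as it was. Dropping the filter and adding the block each left all 90 values the same. Signs changed in 17, over 8 differences, none larger than 0.33 in size. The pseudocount of 0.1 moved 40 of 90 values and leaving out single libraries 34 of 1440. Counts of genes called depended more on the processing. With a pseudocount of 0.1 they were 0 between HE and EC in the E9.5 yolk sac, 5 in the E10.5 embryo, 148 between stages in HE and 149 in EC. With no filter they were 1065 between HE and EC over the 4 settings, 58 in the E9.5 embryo, 11 in the E9.5 yolk sac and 94 in the E10.5 embryo. Upper quartile scaling left 1 in the E9.5 yolk sac. Without both HE-labelled libraries of the E10.5 yolk sac they were 353 between HE and EC over the remaining settings and 35 in the E9.5 embryo. They were 2122 between sites in HE, where E9.5 alone was left, and 549 between stages in EC. In that fit 2 related genes changed sign, Lyl1 between HE and EC (0.0062) and Hdc between sites in HE (-0.0042). The causes were not tested.

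Leaving out 1 library at a time, where the lone library of a group is assumed to vary like the others, gave between 495 calls (without E10.5 embryo EC replicate 1) and, for the fit without E10.5 yolk sac HE replicate 1, 2786 calls between HE and EC over the 4 settings. Within settings it gave 5 to 35 in the E9.5 embryo, 0 to 3 in the E9.5 yolk sac, 9 to 33 in the E10.5 embryo, and 13 to 2649 in the E10.5 yolk sac, the fewest without E10.5 yolk sac EC replicate 1 and the most without HE replicate 1 of the same tissue. Between sites it gave 3977 to 5625 in HE and 3345 to 5229 in EC, and between stages 95 to 853 in HE, the fewest without E9.5 embryo HE replicate 1 and the most with E10.5 yolk sac HE replicate 1 left out. In EC it gave 39 to 547, the fewest without E9.5 embryo EC replicate 1 and the most with E10.5 yolk sac HE replicate 2 left out.

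With the replicate number as a block, 1 gene was called between HE and EC in the E9.5 yolk sac, 18 in the E9.5 embryo and 1861 over the 4 settings. The labels tie the numbers to no litter or sort, and libraries with the same number deviated together with r over 0.1 in 8 of 28 pairs of groups and under -0.1 in 2, so the numbers were not taken as a pairing.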
